A study of Mus musculus with 9 samples.

Results

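The regions described here are places in the mouse genome where ChIP-seq found the nuclear protein DPPA4 in both libraries of P19 cells. Neither of the other lines studied had a reproducible region there, though 57.2% of the regions held a peak of some library of those lines. Peaks present in both lists of a line, sharing 1 bp or more, were joined into its reproducible regions. Overlapping regions of different lines were then fused, and a fused region counted as P19 alone when P19 contributed a reproducible region to it and neither E14 nor 3T3 did. This gave 6234 regions out of 45616 in all, or 13.7% of the merged regions and 18.9% of the 32963 reproducible P19 regions. By comparison, 10040 merged regions (22.0%) were held by E14 alone. The regions were thus chosen by the presence and absence of peaks in the same 6 lists that are described below. Their number, scores and widths are therefore a description and carry no test.

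P19 is an embryonal carcinoma line from a mouse teratocarcinoma, and its 2 libraries came from cells kept in DMEM, to which 10% FBS and 1% glutamine had been added. E14 cells are mouse embryonic stem cells, here cultured feeder-free on gelatin, with 2i and 2% FBS in the medium. 3T3 is a fibroblast line, carried in the medium used for P19, whose cells expressed Dppa4 ectopically. What drives Dppa4 in the 3T3 cells is not given in the sources used here. Each line has 2 libraries made with an antibody to DPPA4 and 1 input library, and the inputs were not used here. Line and culture medium differ together between P19 and E14 and cannot be told apart. Whether replicate libraries stem from different cultures is not stated in the labels, and no immunoprecipitation from cells lacking Dppa4 was analysed here.

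DPPA4 (developmental pluripotency associated) is a chromatin-bound protein made mainly in pluripotent cells and the germ line. It works together with its paralogue DPPA2, and carries a SAP domain, a DNA-binding fold. In mouse embryonic stem cells the pair is known for binding promoters of developmental genes that carry activating and repressive histone marks together. No gene or DNA sequence is assigned to the regions below, since the gene and promoter tables at hand belong to another assembly (GRCm38) than the peak lists (mm9).

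The lists of the P19 libraries held 40011 and 51196 peaks, those of E14 61693 and 43443, and those of 3T3 15462 and 17540. Each peak has a score from the authors' peak caller, whose scale is not named in the files. Scores began at 50 in all lists, and many in the P19 lists were tied at 3100. Scores of 3100 or more went to 1399 and 2108 peaks in P19, 198 and 140 in E14, and 1 and 16 in 3T3. Scores are given as deposited and compared within a list, also as a percentile in which 100 is the strongest peak. Where scores of different lines stand side by side below, they are not known to share a scale. The number of regions of P19 alone depended on the lists used. With a library left out, every peak of the line's other list counted as a region, so the rule changed as well. The number was then 17237 without P19 replicate 1, 9844 without P19 replicate 2 and 3610 without E14 replicate 2. It was 5521 without E14 replicate 1, 5901 without 3T3 replicate 1 and 6177 without 3T3 replicate 2.

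Most regions of P19 alone were narrow and low in the P19 lists, with a small group of very strong ones. In P19 replicate 1 the middle 50% of them scored between 63.1 and 126.4, with a median of 84.9. In P19 replicate 2 the corresponding scores were 77.2 to 184.8 and the median 115.1. Under 100 in both libraries were 2214 regions (35.5%), against 1522 (8.31%) of the 18315 regions held by E14 and P19. At the other end, 86 regions scored 500 or more in both P19 libraries, and 241 (3.87%) lay above the 75th percentile of both lists. Of the regions held by E14 and P19, 35.8% lay above it in both. A single region of P19 alone, on chromosome 5, reached 3100 in both libraries, compared with 809 regions of E14 and P19 and 572 of all 3 lines.

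**Figure D1:**
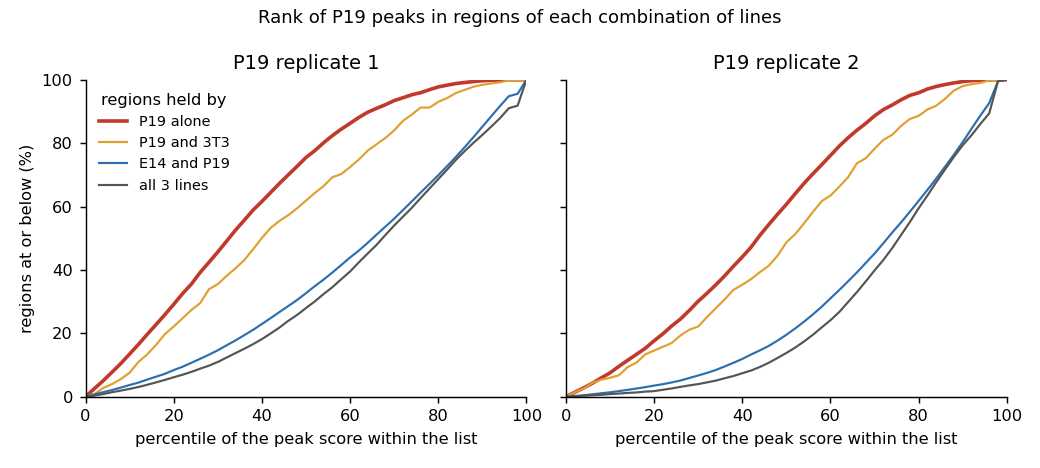
Cumulative share of regions (y axis, %) against the percentile of the best P19 peak in the region (x axis, 100 for the strongest peak of the list), for each P19 library and each combination of lines that includes P19. P19 alone has the lowest medians, at the 32.5th and 43.5th percentile, followed by P19 and 3T3, with medians at 39.9 and 51.1.

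The 2 P19 libraries placed these regions at nearly the same point, though they ranked them less alike than shared regions. In 6031 regions (96.7%) each P19 library had exactly 1 peak, and the midpoints of these peaks were a median of 43.0 bp apart. The corresponding offset was 40.0 bp in regions of E14 and P19. The peaks themselves were 357.0 and 484.0 bp wide in P19 alone, against 530.0 and 672.0 bp in E14 and P19 (medians for replicates 1 and 2). Whole regions of P19 alone had a median width of 515 bp, with the middle 50% between 425 and 642.8 bp. The median was 324 bp without P19 replicate 2 and 788 bp with lists of equal length. Across the 6234 regions the scores of the P19 libraries had a Spearman rank correlation of 0.60, against 0.91 over the regions of E14 and P19. These correlations run over regions of the same pair of libraries. The narrower range of scores in P19 alone goes with the lower value, and its part in it was not tested.

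More than 50% of the regions of P19 alone held a peak in a single library of another line, too little to make a reproducible region there. E14 replicate 1, the longest list, had a peak in 2703 of them (43.4%, Wilson 95% interval 42.1 to 44.6). E14 replicate 2 had one in 723 (11.6%, 10.8 to 12.4). With lists of equal length, each holding its 15462 highest scores, the order turned, to 16.7% for E14 replicate 1 and 21.8% for E14 replicate 2. In 13 regions both E14 libraries had peaks that did not overlap each other. The 3T3 libraries had a peak in 104 (1.67%) and 333 (5.34%). No peak of any E14 or 3T3 library was found in 2668 regions (42.8%, 41.6 to 44.0), the stricter group. A peak of either E14 library was found in 3413 regions (54.75%). Leaving out E14 replicate 1 gave a share without other peaks of 94.4%, and leaving out E14 replicate 2 gave 91.9%. These values are largely set by the rule, which then takes every peak of the remaining E14 list as a region. Peaks of the list left out are no longer counted, so only 3T3 peaks can lower the share. Regions of E14 alone behaved much the same in reverse. P19 replicate 2, the longer P19 list, had a peak in 43.2% of them and P19 replicate 1 in 8.90%.

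The E14 peaks in these regions were mostly weak in their own list. Their median score was 85.6 in E14 replicate 1 and 68.8 in E14 replicate 2, at the 35.6th and 21.6th percentile. The highest E14 score in any region of P19 alone was 646.3 in replicate 1 and 330.8 in replicate 2. In 712 regions (11.4%) an E14 peak ranked in the upper 50% of its own list. In 1378 regions (22.1%) the E14 peak stood at a higher percentile in its list than the P19 peaks did on average in theirs. Where both E14 libraries had a peak, the higher percentile was taken. The lists differ in length, with 61693 and 43443 peaks in E14 and 40011 and 51196 in P19. Equal percentiles are thus not equal ranks, and the effect on this count was not tested.

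Regions that ranked higher in P19 were more often accompanied by an E14 or 3T3 peak. Sorted by the mean percentile of the P19 libraries into 4 equal groups, the share with a peak in E14 replicate 2 was 7.70%, 10.3%, 12.7% and 15.7% from the lowest to the highest group. For E14 replicate 1 it was 39.0%, 43.2%, 44.8% and 46.4%. The share with no peak in any other line was 51.8% in the lowest group and 35.4% in the highest (Wilson intervals 49.4 to 54.3 and 33.1 to 37.8). Width moved along with rank, with median widths of 404, 474, 556 and 701 bp. The part of width in this rise was not tested.

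**Figure D2:**
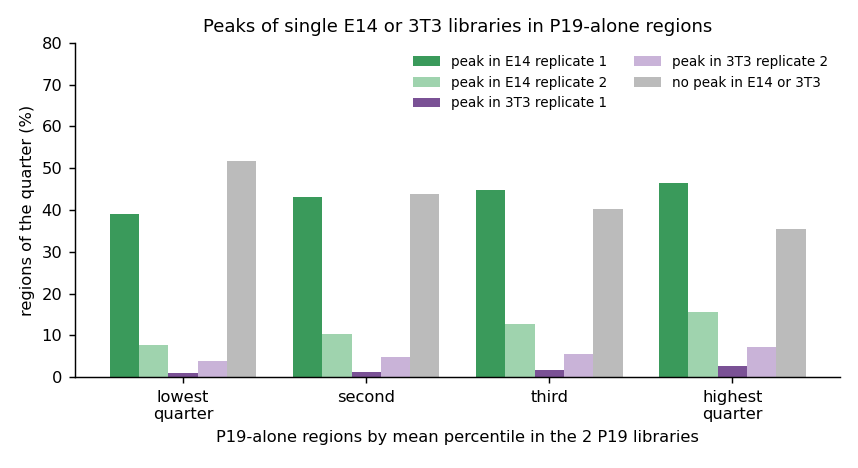
Share of the regions of P19 alone (y axis, %) that hold a peak of each E14 or 3T3 library, or of none, in 4 equal groups by mean percentile in the P19 libraries (x axis, lowest to highest). Peaks of each of the 4 libraries become more frequent from the lowest to the highest group, and regions without any go from 51.8% to 35.4%.

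The 10 best-ranked regions, by their mean percentile over both P19 libraries, had P19 peaks near the top of both lists. They were 890 to 3201 bp wide, scored at least 1529.0 in P19 replicate 1 and 2042.3 in P19 replicate 2, and lay on 8 chromosomes. None of the 10 was on chromosome 11. The strongest, chr5:125646116-125647492 (1377 bp), scored 3100 in both P19 libraries, against 53.71 in E14 replicate 1, no peak in E14 replicate 2, no peak in 3T3 replicate 1 and 77.23 in 3T3 replicate 2. The next, chr1:90101696-90102708, scored 2909.4 and 3100 in P19 and had a single other peak, which scored 226.41 in E14 replicate 2. On chromosome 2, chr2:174109469-174112669 scored 2076.3 and 3100 in P19, against 100.6 in E14 replicate 2 and 105.43 in 3T3 replicate 2. Of the E14 and 3T3 peaks in these 3 regions, that of chr1:90101696-90102708 stood at the 68.8th percentile of its list and the others at or below the 40.2nd percentile of theirs.

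Peaks of E14 replicate 2 were found in 6 of the 10 regions, with scores between 73.1 and 226.4, and peaks of 3T3 replicate 2 likewise in 6. Both were present in the chromosome 2 region above and in chr12:81210580-81211729 (P19 scores of 2233.2 and 2593.4), chr16:13754303-13755446 (2361 and 2382.7), chr14:47993126-47994420 (1970 and 2061.7) and chr12:113931365-113932254 (1753.6 and 2210). The tenth, chr15:83197086-83198250, scored 1529 and 2042.3 in P19 and 51.26 in 3T3 replicate 1, with no E14 peak. Over all regions of P19 alone, E14 replicate 2 had a peak in 11.6% and 3T3 replicate 2 in 5.34%. In the highest of the 4 groups by P19 percentile these shares were 15.7% and 7.31%. E14 replicate 2 and 3T3 replicate 2 had wider peaks than the other library of their lines, with medians of 772 bp and 872 bp over the whole list against 411 bp and 400 bp, and the part of this in the overlaps was not tested.

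Only 2 of the 10 had no peak in any library of another line, against 42.8% of all regions of P19 alone. In the highest of the 4 groups by P19 percentile that share was 35.4%. One was chr5:23336699-23337661, 963 bp wide, which scored 2390.3 and 2591 in the P19 libraries. The other was chr6:148302679-148304174, 1496 bp wide, with 1629.2 and 2621.7. Among all 2668 regions free of other peaks the next strongest were chr18:43637055-43637792 with 1350.2 and 2161.1, chr7:67300172-67301108 with 1273 and 1631, and chr17:23013259-23014550 with 1073.1 and 1367.4. A score of 500 or more in both P19 libraries was reached by 21 of the 2668, against 65 of the 3566 regions that also held a peak of another line.

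The widest region of P19 alone was chr8:125949568-125958558, at 8991 bp. It was made of 2 adjoining peaks in each P19 library, with scores of 281.2 and 210.8 in replicate 1 and 379.6 and 215.7 in replicate 2, and had no peak in E14 or 3T3. The second widest was the chromosome 2 region of 3201 bp named above. The third, chr8:19854547-19857019 (2473 bp), was weak, with 51.8 and 65.01 in P19 and 101.16 in E14 replicate 1.

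At the edge of the rule, a difference of a few bases decided on which side a region fell. The regions chr10:41606229-41606719, chr11:3633988-3634411 and chr15:98621110-98621811 counted as P19 alone although they abutted a 3T3 region (the first) or an E14 region (the others) with 0 bp between them. On the other side, regions around chr15:95650103-95651343, chr2:102498763-102500015 and chr7:53172429-53173833 were counted as shared with overlaps of 1, 2 and 2 bp. Within 100 bp of a region of another line were 127 regions of P19 alone (2.04%).

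Many regions of P19 alone lay close to places where E14 also held DPPA4. The median gap to the nearest reproducible E14 region was 10.6 kb, and 777 regions (12.5%) had one within 1 kb. Within 10 kb it was 48.7%, a share that was 31.1% with the best-scoring 50% of each list and 19.7% with lists of equal length. Only 303 regions (4.86%) were over 100 kb from any E14 region. For regions of E14 alone the median gap to the nearest P19 region was 16.3 kb, 7.97% had one within 1 kb and 9.83% had none within 100 kb. There were 37337 E14 regions to meet but 32963 P19 regions, so the gaps are not on an equal footing. Regions of 3T3 alone had a median gap of 11.1 kb to the nearest E14 region, and 47.1% had one within 10 kb. The nearest 3T3 region was a median of 34.3 kb away from regions of P19 alone and 47.9 kb from regions of E14 alone. There were 11178 3T3 regions to meet, fewer than of E14 or P19.

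**Figure D3:**
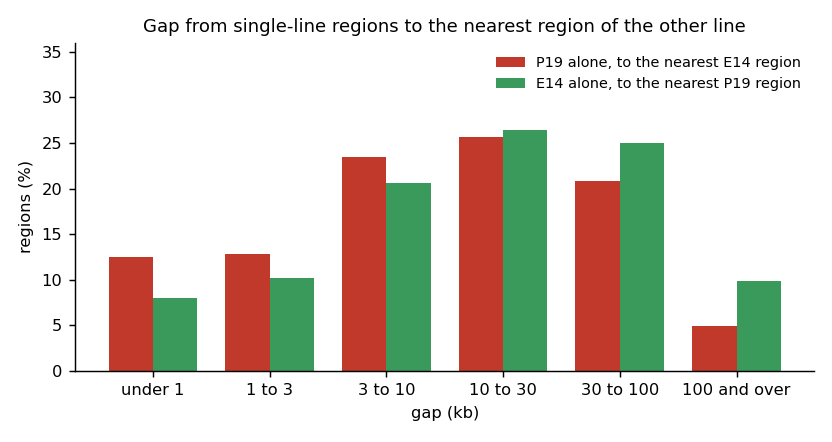
Gap in kb (x axis, unequal bins) from each region of P19 alone to the nearest E14 region and from each region of E14 alone to the nearest P19 region, as a share of the regions (y axis, %). Gaps under 1 kb made up 12.5% of the first set and 7.96% of the second, and gaps of 100 kb and over 4.86% and 9.83%.

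Chromosome 11 held more regions of P19 alone than any other chromosome. Of its 3595 merged regions 791 were of P19 alone (22.0%, Wilson 95% interval 20.7 to 23.4), against 13.7% over the genome and 10.2% to 16.4% on the other autosomes. It was also the chromosome on which P19 alone outnumbered E14 alone, with 791 regions against 603. On each of the other autosomes and on X, E14 alone had more, chromosome 6 being closest with 388 against 411. Chromosome 11 thus carried 12.7% of the regions of P19 alone, but 6.01% of those of E14 alone and 7.88% of all merged regions. Per Mb up to the last region this came to 6.49 regions, against a median of 2.36 over the other autosomes. Chromosome 11 also had the most merged regions of all kinds, 3595 up to 121.8 Mb. The value per Mb thus holds that density as well as the share of P19 alone. The X chromosome was lowest among the chromosomes in the plot, with 126 of 1386 regions (9.09%).

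The share on chromosome 11 differed somewhat between subsets of P19 alone. It was 14.5% of the 2668 regions with no peak in another line and 11.3% of the 3566 with one. In the 4 equal groups by mean P19 percentile it was 11.35%, 12.13%, 14.31% and 12.96%, from lowest to highest. The upper 50% together had 13.6%. In all 14 alternatives tried, chromosome 11 took a larger share of P19 alone than of all regions, by 1.35 to 1.84 times. Over the whole lists, which include every peak, chromosome 11 took 8.66% and 8.65% of the peaks in P19, 7.51% and 7.19% in E14, and 8.46% and 8.18% in 3T3. Both P19 libraries were above all others, with the 3T3 libraries close behind. Regions held by both E14 and P19, with or without 3T3, are called shared here and in the stretches below. In these the P19 percentile minus the E14 percentile had a median of 0.797 points on chromosome 11, against -2.32 points over all chromosomes.

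**Figure D4:**
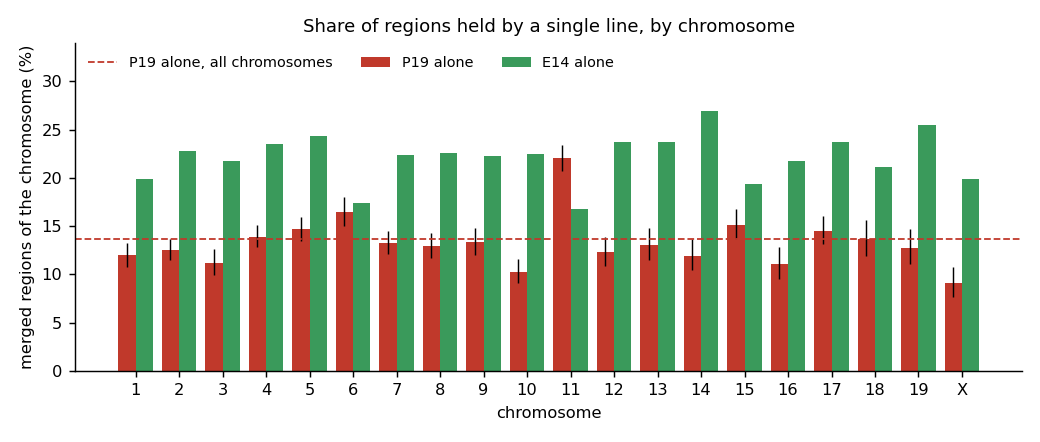
Share of the merged regions of each chromosome (y axis, %) held by P19 alone (left bars, with Wilson 95% intervals) and by E14 alone (right bars), with the share of P19 alone over all chromosomes as a dashed line at 13.7%. Chromosome 11 stands at 22.0% for P19 alone, above its 16.8% for E14 alone.

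Along the chromosomes the share of P19 alone varied between windows. Of 266 windows of 10 Mb with at least 50 merged regions, the median share of P19 alone was 12.0% and the range 0.893% to 30.5%. Windows above 20% numbered 17, of which 8 lay on chromosome 11 and 4 on chromosome 6. Chromosome 11 had 13 of the 266 windows. The 17 windows held 18.2% of the regions of P19 alone and 10.5% of all merged regions, so most regions of P19 alone lay outside them. Across the 266 windows the share of P19 alone rose with the number of merged regions in the window (Spearman rank correlation 0.60), and had almost no relation to the share of E14 alone (-0.05). With the median P19 minus E14 percentile in shared regions of the window it had a correlation of 0.12, and in the highest window, from 140 to 150 Mb of chromosome 6, that median was -0.62 points. These are descriptions over windows of the same lists.

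On chromosome 6 the share changed partway along. In the first 90 Mb, 121 of 1226 regions were of P19 alone (9.87%, 8.32 to 11.7), and from 110 Mb to the end 220 of 872 (25.2%, 22.5 to 28.2). The highest window among those with at least 50 merged regions lay there, between 140 and 150 Mb, with 51 of 167 regions (30.5%). The stretch from 110 Mb took 2.20% and 2.15% of the P19 peaks, against 1.71% and 1.65% in E14 and 2.04% and 1.82% in 3T3. Both P19 libraries were thus higher than all other libraries in this stretch. The share of P19 alone in it moved when a library was left out and the rule changed with it, as the genome-wide share did. It was 12.2% without E14 replicate 2, when the genome-wide share was 5.64%, and 44.0% without P19 replicate 1, when that share was 30.4%. With lists of equal length the stretch stood at 16.6%, against 13.9% over the genome. The limits of these stretches were set after their values were seen.

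Shares of P19 alone above 20% were also found on chromosome 11, mainly in its distal part, and at the end of chromosome 15. Between 90 and 120 Mb of chromosome 11, 398 of 1521 regions were of P19 alone (26.2%, 24.0 to 28.4), against 178 of 1029 (17.3%) in the first 60 Mb. The course was not steady, since the first window of 10 Mb had 20.6% and the last, from 120 Mb, 20 of 128 (15.6%). The distal part took 3.83% and 3.70% of the P19 peaks, against 3.23% and 2.98% in E14 and 3.22% and 3.27% in 3T3. On chromosome 15 the share from 100 Mb was 54 of 210 (25.7%, 20.3 to 32.0), and 13.9% before it. From 100 Mb the 3T3 libraries had the larger share of their peaks, 0.582% each, against 0.492% and 0.494% in P19 and 0.399% and 0.391% in E14. Earlier on chromosome 15, the window from 30 to 40 Mb also had 34 of 159 (21.4%). Windows above 20% lay on chromosomes 9 (120 to 130 Mb, 21.2%) and 16 (30 to 40 Mb, 20.45%) too.

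On distal chromosome 4 the share of P19 alone differed between neighbouring stretches. From 130 to 150 Mb, 206 of 1005 regions were of P19 alone (20.5%, 18.1 to 23.1) and 244 (24.3%) of E14 alone. From 150 Mb to the end only 13 of 328 were (3.96%, 2.33 to 6.66), while 162 (49.4%) were of E14 alone. In that last stretch the P19 libraries had 0.480% and 0.514% of their peaks, against 0.937% and 0.854% in E14 and 0.621% and 0.736% in 3T3. The median P19 minus E14 percentile in regions shared there was -13.3 points. Without P19 replicate 1 the share of P19 alone in that stretch was 15.1%, when the genome-wide share was 30.4%. Without P19 replicate 2 it was 8.43%, against 19.95% over the genome, and without E14 replicate 2 it was 1.77%, against 5.64%. With lists of equal length it was 7.87%, against 13.9%.

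**Figure D5:**
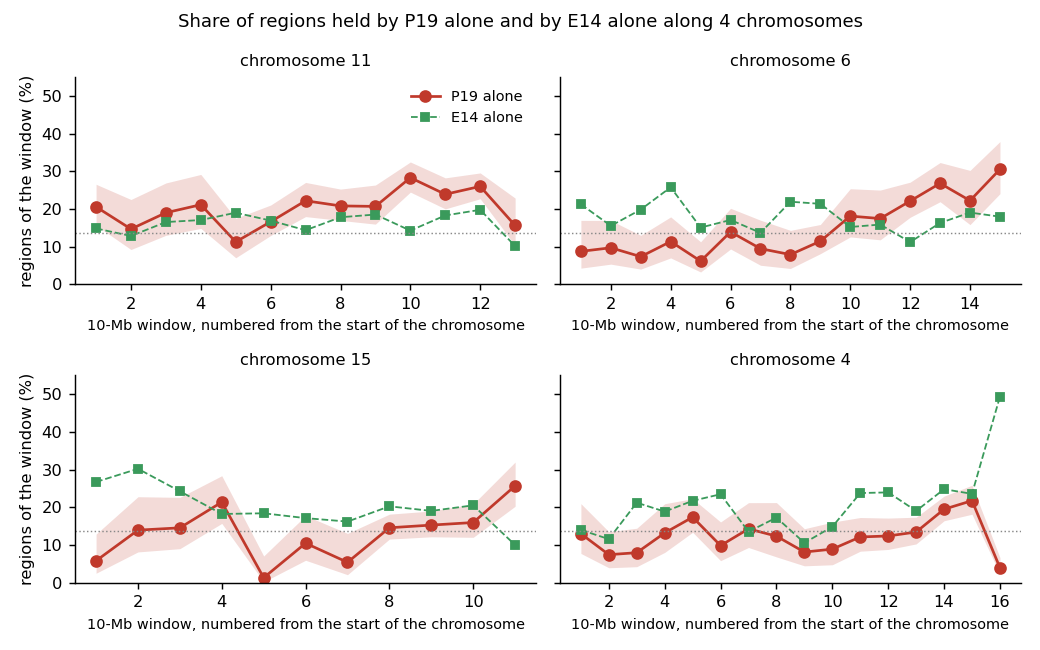
Share of merged regions (y axis, %) held by P19 alone (circles, shaded Wilson 95% intervals) and by E14 alone (squares) in 10-Mb windows numbered from the start of chromosomes 11, 6, 15 and 4 (x axis), with the genome-wide share of P19 alone dotted. P19 alone reaches 28.3% in window 10 of chromosome 11 and 30.5% in the last window of chromosome 6, and is at 3.96% in the last window of chromosome 4, where E14 alone is at 49.4%.

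At finer scale, the window of 1 Mb with the highest number was on chromosome 11. Between 96 and 97 Mb, 34 of 72 merged regions were of P19 alone (47.2%), 12 of E14 alone, 13 of E14 and P19, and 7 of all 3 lines. By share, 114 to 115 Mb of the same chromosome was higher, with 22 of 44. Next by number were 94 to 95 Mb with 29 of 91 and 117 to 118 Mb with 29 of 102 on the same chromosome, level with 140 to 141 Mb of chromosome 4 with 29 of 125. Of 2580 windows of 1 Mb with a merged region, 137 had 10 or more regions of P19 alone, and 29 of these were on chromosome 11. That chromosome held 12.7% of the regions of P19 alone and 7.88% of all merged regions. Windows dense in merged regions of any kind reach 10 more readily, and the part of this was not tested.

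Between 96 and 97 Mb, a stretch from 96112749 to 96194824 of chromosome 11 held 18 merged regions, of which 15 were of P19 alone. The others were 2 regions of all 3 lines and 1 of 3T3 alone. Among its strongest regions of P19 alone, chr11:96160249-96161103 scored 610.4 and 492.1 in the P19 libraries and 89.2 in E14 replicate 2. Its neighbour chr11:96161576-96162722 scored 498.8 and 531.0 in P19 and 54.38 in E14 replicate 2. A region of all 3 lines close by, chr11:96164789-96165653, scored 1325.8 and 843.2 in P19, against 67.15 and 129.3 in E14.

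Runs of consecutive regions of P19 alone, with no region of another kind between them, were short. Of the 6234 regions 2025 (32.5%) belonged to a run of 2 or more, against 4447 of the 10040 regions of E14 alone (44.3%). Regions of E14 alone are the more numerous kind. Runs of 5 or more numbered 14, of which 6 were on chromosome 11 and 3 of those in the stretch just described. Chromosome 11 held 12.7% of the regions of P19 alone. The longest run was chr2:165671030-165753467, with 7 regions over 82.4 kb. Their scores ranged from 54.6 to 432.4 in P19 replicate 1 and from 79.6 to 521.8 in replicate 2, and 5 of the 7 had no peak in another line. Runs of 6 lay at chr9:114407416-114434392 (27.0 kb), chr2:32014128-32044673 (30.6 kb) and chr5:113752858-113891459 (138.6 kb). In these, scores in P19 replicate 2 stayed under 400.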

How the data were processed

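ChIP-seq of DPPA4 was analysed from 6 deposited peak lists, 1 per library. Per the submitters' processing notes, the build was mm9, and SAMtools 1.3, BWA 0.7.13-r1126, bcl2fastq 1.8 and CASAVA 1.8 were used. Peaks are named MACS in the deposited lists. For that caller, version, threshold and control were not found in the labels or file headers. The deposited score of each peak is the authors' own, on a scale the files do not name, and was used as given and as a percentile within its list (tied scores share a mean rank). The lists give no read counts, so the depth is unknown. A region took its best peak in each library. Coordinates are 1-based in mm9.

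Wilson 95% intervals cover counting error only and treat regions as independent. With 2 libraries on each side the smallest exact two-sided p is 0.333, so no test was run. Named regions were the 10 strongest, the 5 strongest without another line's peak, the 3 widest, the longest runs, the windows of 1 Mb with the highest numbers and those at the edge of the overlap rule. The regions and these rules were chosen with earlier results of these data known, and the stretches of chromosomes 4, 6, 11 and 15 and the stretch near 96 Mb of chromosome 11 after their values were seen. The planned gene and sequence context was not run, since no mm9 annotation was used here. Calculations ran in Python 3.11.15 with pandas 2.3.3, NumPy 2.4.6, statsmodels 0.14.6, SciPy 1.17.1 and Matplotlib 3.10.9. Code that finds overlaps was checked on simulated lists with known combinations of lines.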

Additional observations from a re-analysis of the deposited data

How the results depend on the processing

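The number of regions of P19 alone depends on the lists. It was 6320 with an overlap of 50% of the shorter peak, 6090 on autosomes alone and 6707 with peaks of 500 bp, but 3791 with the best-scoring 50% of each list, 3120 with lists of equal length (15462 peaks) and 11495 with peaks of either library. Leaving out a library, with every peak of the line's other list then taken as a region, gave 3610 (without E14 replicate 2) to 17237 (without P19 replicate 1). A replicate block, in which lists meet only lists with their own number, gave 10879 on average; no label ties equal numbers of different lines to a common origin.

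The share without any peak in another line was 45.8%, 53.0%, 41.1% and 69.3% with the best 50%, lists of equal length, peaks of 500 bp and the replicate block. It is 100% by construction with peaks of either library. Leaving out a library gave 45.6% to 94.4%. The values without an E14 library (91.9% and 94.4%) are largely set by the rule. The chromosome 11 share of P19 alone was 11.6% with the best 50%, 10.3% with lists of equal length and 14.5% in regions without other peaks (chosen after the data were seen), and 11.4% to 14.3% with a library left out. With the block it was 12.1%. Fewer peaks enter the best 50% and the equal lists. With a library left out, and in the block, every peak of a single list counted as a region of its line, in place of the overlap rule. Peaks of a list left out were not counted as peaks of another line. The part of these changes in the moves was not tested. Without read depth, an absent peak cannot be told from a site below detection.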
